A study of Mus musculus with 12 samples.

Results

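The miR-148/miR-152 family consists of microRNAs that carry 1 common seed, and it was followed here in sorted mouse embryonic cells from the endoderm stage to the early pancreatic bud. Its members were taken by name: every entry of the count table called miR-148a, miR-148b or miR-152, as a mature arm or as a precursor hairpin. The rule found 7 of the 1053 entries, 4 mature arms and 3 precursors. The mature arms were mmu-miR-148a-3p, mmu-miR-148b-3p, mmu-miR-152-3p and mmu-miR-148a-5p, and the precursors were mmu-mir-148a, mmu-mir-148b and mmu-mir-152.

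Small RNA had been sequenced from 12 libraries of cells sorted for the red fluorescent protein tdtomato, 3 at each of 4 stages. At E8.5 (embryonic day 8.5) the cells were endoderm of whole embryos, marked by Foxa2-CreER, a Cre recombinase made from the Foxa2 locus that works only in the presence of tamoxifen, which the dams received. For the 3 later stages (E9.5, then E10.5 and E11.5) trunk cells were used, marked by Pdx1-Cre, which is active in pancreatic progenitors and also in the duodenum. Between E8.5 and E9.5 the driver of Cre and the tissue dissected thus differ as well as the stage, and the library names carry 1 number per stage, so stage and any batch which that number marks cannot be told apart. All marked cells carried a Cre allele and the reporter. Per the study's methods the crosses used males with a mir-302 allele replaced by a green fluorescent protein, and the labels do not say which mir-302 alleles the embryos carried. The labels also do not say whether the libraries of a stage came from separate embryos or litters, so p-values measure the spread between these libraries, which may be technical.

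A microRNA pairs through its seed, bases 2 to 8, with sites in messenger RNAs, and lowers their stability and translation. Arms with 1 seed therefore recognise largely the same sites, and members of a family can stand in for each other. In adult tissues miR-148a is abundant in liver and pancreas, and DNA methyltransferase genes such as Dnmt1 are well-studied targets of the family.

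The mature sequences are given first because the members differ by so few bases. In the 3p arms below, taken from RefSeq (GRCm38.p6), capitals mark the seed. They are written 5′ to 3′.
miR-148a-3p: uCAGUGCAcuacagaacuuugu
miR-148b-3p: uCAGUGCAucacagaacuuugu
miR-152-3p: uCAGUGCAugacagaacuugg
With positions counted from 1 at the 5′ end, miR-148a-3p and miR-148b-3p were identical at 20 of 22 positions and differed by C9U and U10C. From miR-148a-3p to miR-152-3p the changes were C9U, U10G and U20G, with 18 of 21 shared positions identical. miR-148b-3p and miR-152-3p differed by C10G and U20G. The seed CAGUGCA stood at bases 2 to 8 of exactly 3 of the 1679 mature mouse microRNAs in the RefSeq table, which are these 3 arms. The same letters stood at bases 1 to 7 of 7 other arms, 4 of them in the count table, among which miR-130a-3p and miR-130b-3p are shown because they belong to the related group described last. In them the seed is shifted by 1 base.
miR-130a-3p: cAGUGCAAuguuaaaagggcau
miR-130b-3p: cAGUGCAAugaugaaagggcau

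Each member comes from its own hairpin. Mir148a lies on the minus strand at chr6:51269812-51269910, where GENCODE M21 has no other gene. Mir148b lies on the plus strand at chr15:103285125-103285221, in an intron of Copz1. Mir152 lies on the plus strand at chr11:96850393-96850465, in an intron of Copz2. Copz1 and Copz2 are paralogs that encode the zeta subunits of the COPI vesicle coat, and each is transcribed in the direction of its microRNA. In the hairpins below capitals mark the 5p and the 3p arm, and they show why a read of the 3p arm also matches its precursor.
Mir148a: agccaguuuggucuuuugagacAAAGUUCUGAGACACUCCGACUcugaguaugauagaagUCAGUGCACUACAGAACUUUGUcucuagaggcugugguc
Mir148b: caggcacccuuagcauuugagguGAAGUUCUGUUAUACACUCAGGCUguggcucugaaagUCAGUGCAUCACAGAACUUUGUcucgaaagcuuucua
Mir152: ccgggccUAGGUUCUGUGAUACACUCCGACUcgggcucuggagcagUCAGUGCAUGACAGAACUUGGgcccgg
The 5p arms of miR-148b and miR-152 are not analysed here.

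Depth differed widely between libraries, which sets how firmly each stage can be read. The counts assigned to microRNA entries ranged from 386094 to 594224 in the E8.5 libraries and from only 53996 to 80075 in those of E9.5. They ranged from 133435 to 267978 in the E10.5 libraries and from 417743 to 1103383 in those of E11.5. Levels are given in CPM, counts scaled to a fixed library total with TMM-adjusted library sizes. The 3 counts taken as the detection floor equalled 32.2 to 76.3 CPM in the E9.5 libraries, 11.49 to 25.9 CPM in those of E10.5 and 2.76 to 7.80 CPM in the E8.5 and E11.5 libraries. Precursor entries took 20.7% to 36.03% of the counts of the E9.5 libraries and 10.2% to 13.6% of those of the other libraries. The reads carried no molecular identifiers that were used in counting, so floors and intervals cover counting error only.

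Markers of other cell types also moved between stages. The hepatocyte list, led by the liver microRNA miR-122-5p, summed to 692 to 1054 CPM in the E8.5 libraries and to 40802 to 131792 CPM in the others. The muscle list, led by miR-1a-3p, summed to between 5310 and 27015 CPM in the E8.5 and E9.5 libraries and to between 268 and 3539 CPM in the 6 later ones. Nearly all of that sum was miR-1a-3p. Its list partner miR-206-3p went the other way, with at most 10 counts in any library before E11.5 and 106, 0 and 208 there. Leukocyte markers went in different directions. miR-223-3p had 103, 0 and 105 counts in E9.5 replicates 1, 2 and 3 and at most 1 in any other library. miR-155-5p had 100, 163 and 39 counts at E8.5 but 2, 0 and 1 at E9.5, where miR-142a-5p had 0, 1 and 0. miR-223-3p was not tested, since it did not pass the filter on low counts. On the log2 scale of TMM-scaled CPM, E9.5 replicates 1 and 3 also lay farthest from the medians of miR-148a-3p and miR-148b-3p. In them miR-148a-3p was low in replicate 1 and high in replicate 3. E10.5 replicate 2 was nearly as high in miR-148a-3p (5357 against 5571 CPM). With library size alone, E10.5 replicate 2 took the place of E9.5 replicate 3 among those farthest for miR-148a-3p. The epithelial list (the miR-200 family) was present in every library, at 9080 to 39180 CPM. Of the acinar markers, miR-217-5p had at most 2 counts in any library before E11.5, where it had 107, 0 and 47, and it also failed the filter. The other acinar arm in the table, miR-216b-5p, did not follow it. Its counts were 1, 0 and 48 at E8.5, 125, 21 and 0 at E10.5 and 18, 71 and 0 at E11.5, with none at E9.5. The part of these cells in the family's levels was not tested, and in bulk libraries fewer cells of a type and less RNA per cell cannot be told apart.

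The 3p arms together held 11122 counts over the 12 libraries. miR-148a-3p supplied 8303 of them (74.7%), miR-148b-3p 2540 (22.8%) and miR-152-3p 279 (2.51%). Since the arms share a seed, their counts were also added as the miR-148/miR-152 3p sum.

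The sum stood at a similar mean level at the first and the last stage and was scattered in between. At E8.5 it measured 2467, 1829 and 2224 CPM (2173 ± 322, mean ± SD, n = 3). At E9.5 it measured 2385, 1644 and 5698 CPM (3242 ± 2159, n = 3). Here replicate 3 stood alone, and the other two libraries lay close to the E8.5 range. Replicate 3 was also the smallest of the 12 libraries (53996 counts), with the largest precursor share (36.03%) and the lowest TMM factor (0.733), which raises its CPM. Their part in its high value was not tested. At E10.5 the libraries held 2853, 5513 and 1638 CPM (3334 ± 1982, n = 3). At E11.5 they held 1809, 2311 and 2233 CPM (2118 ± 270, n = 3). All 4 stages overlapped, and the highest E8.5 and E11.5 libraries lay well below the single high library of E9.5 and of E10.5. Behind these levels stood only 146 to 224 counts per library for E9.5, against 418 to 745 for E10.5, 704 to 1529 for E8.5 and 789 to 2512 for E11.5.

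**Figure D1:**
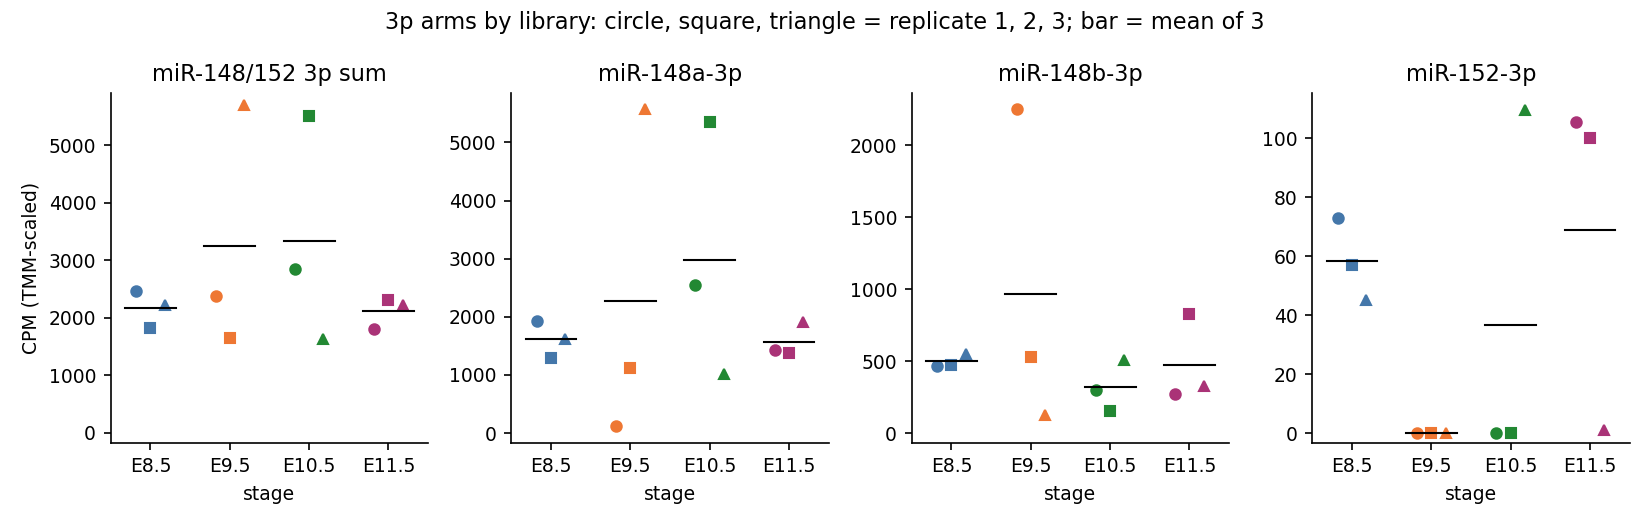
TMM-scaled CPM (linear y axes, 1 scale per panel) of the 3p sum and of its 3 members by stage, with 1 symbol per library and a bar at the mean of 3. The sum is narrow at E8.5 and E11.5 and has 1 high library at E9.5 (5698 CPM) and 1 at E10.5 (5513 CPM), and miR-152-3p lies at 0 in all 3 E9.5 libraries.

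In no comparison did the sum change beyond the spread between libraries. The edgeR quasi-likelihood fit gave 0.57 as the log2 fold change for E9.5 against E8.5 (SE 0.61, 95% interval -0.71 to 1.84, adjusted p = 0.580). In that comparison 5.62% of the 569 entries tested were called at an adjusted p under 0.05, and the entries had a median log2 fold change of -0.85. RLE scaling raised the value of the sum to 1.30 (adjusted p = 0.300) and DESeq2 gave 1.30 (unadjusted p = 0.0462, adjusted p = 0.161), while with RLE the median of the entries tested one by one rose from -0.84 to -0.21. For E10.5 against E9.5 the log2 fold change of the sum was 0.05 (SE 0.61, 95% interval -1.22 to 1.33, adjusted p = 0.9748), where 4.39% of entries were called. Its sign was not stable, since RLE scaling gave -0.51 in a fit where the median of the entries tested one by one moved from 0.17 to -0.29.

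E11.5 against E10.5 gave -0.66 for the sum (SE 0.61, 95% interval -1.93 to 0.62, adjusted p = 0.814), where 0.351% of entries were called. Without E10.5 replicate 2 this value was -0.011. Over the whole span, E11.5 against E8.5, the log2 fold change was -0.03 (SE 0.61, 95% interval -1.30 to 1.23, adjusted p = 0.987), although 11.8% of entries were called there. The interval still allows a change of more than 1 log2 unit in either direction, so an unchanged level is not shown. The test for any difference between the 4 stages gave an adjusted p of 0.716 for the sum, and 16.0% of entries passed that test.

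**Figure D2:**
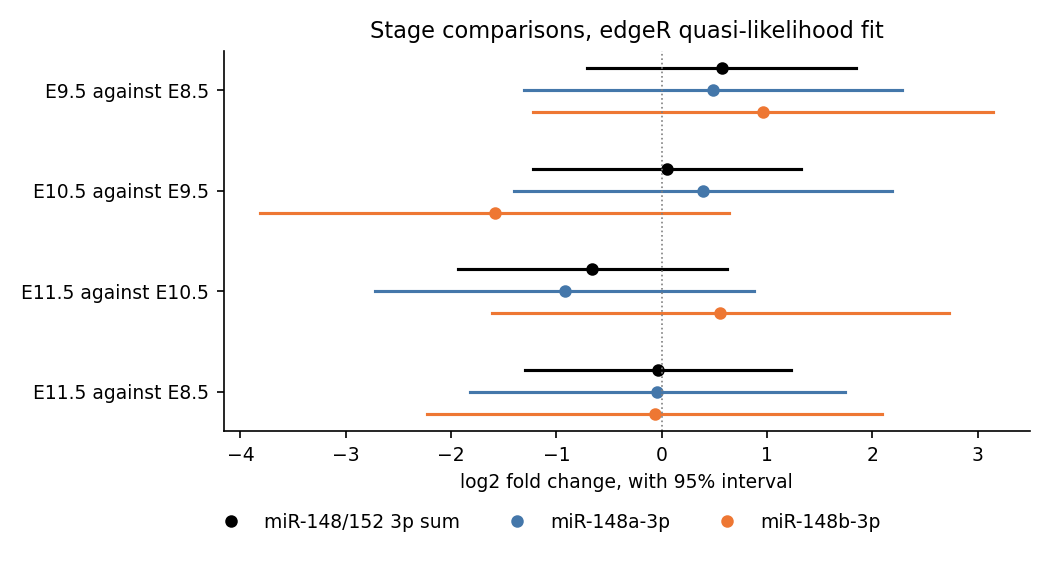
Log2 fold changes (x axis) of the 3p sum, miR-148a-3p and miR-148b-3p in the 4 stage comparisons, with 95% intervals from the edgeR quasi-likelihood fit of all 12 libraries. All 12 intervals include 0, and those of the sum are narrower than those of the 2 members in each comparison.

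Taken one by one, 5 of the 7 members passed the filter on low counts and entered the test, which covered 571 entries. None of the 5 was called by edgeR in any comparison of stages, and none had an unadjusted p under 0.05. DESeq2 also called 0 members, and 1 member, miR-148b-3p in E10.5 against E9.5, had an unadjusted p under 0.05 there (adjusted p = 0.119). The share of all entries called was 5.60% for E9.5 against E8.5, 4.38% for E10.5 against E9.5, 0.350% for E11.5 against E10.5, 11.6% for E11.5 against E8.5 and 15.9% for any stage.

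miR-148a-3p was the most abundant member in 11 of the 12 libraries. The E8.5 libraries held 1926, 1297 and 1626 CPM (1616 ± 315, n = 3). At E9.5 the values were 131, 1117 and 5571 CPM, a range that rested on 8, 104 and 219 counts. At E10.5 they were 2550, 5357 and 1019 CPM. In TMM-scaled CPM the E9.5 libraries thus held both the lowest and the highest level of all 12. The highest place depended on the scaling. As a percent of library counts, E10.5 replicate 2 (0.465%) stood above E9.5 replicate 3 (0.406%). At E11.5 miR-148a-3p measured 1429, 1382 and 1908 CPM (1573 ± 291, n = 3). Among the mature arms its rank by counts was 69 to 92 for E8.5 libraries and 71 to 79 for E11.5 libraries, but 38 to 147 for E9.5 and 30 to 99 for E10.5. Its log2 fold changes were 0.49 for E9.5 against E8.5 (SE 0.87, adjusted p = 0.744), 0.39 for E10.5 against E9.5 (SE 0.87, adjusted p = 0.817) and -0.92 for E11.5 against E10.5 (SE 0.87, adjusted p = 0.822). E11.5 against E8.5 gave -0.04 (SE 0.86, adjusted p = 0.984). The value for E11.5 against E10.5 was -0.12 without E10.5 replicate 2. The value for E9.5 against E8.5 was 1.30 with RLE scaling and 1.30 with DESeq2, against 0.043 with library size alone. It also changed sign with the E9.5 library that was left out, from -1.39 without replicate 3 to 1.10 without replicate 2.

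miR-148b-3p, the copy within Copz1, was the second most abundant member by total counts. At E8.5 it measured 468, 476 and 553 CPM (499 ± 46.9, n = 3). At E9.5 it measured 2255, 526 and 127 CPM, from 138, 49 and 5 counts. The order of the 3 libraries was the reverse of that of miR-148a-3p. At E10.5 the values were 302, 156 and 510 CPM (323 ± 178, n = 3), and at E11.5 they were 275, 829 and 324 CPM (476 ± 307, n = 3). At these stages too the library lowest in miR-148a-3p was the highest in miR-148b-3p. Fitted log2 fold changes of miR-148b-3p were 0.96 for E9.5 against E8.5 (SE 1.05, adjusted p = 0.589) and -1.59 for E10.5 against E9.5 (SE 1.07, adjusted p = 0.413). Without E9.5 replicate 1 they became -0.65 and 0.02. E11.5 against E10.5 gave 0.56 (SE 1.05, adjusted p = 0.901) and E11.5 against E8.5 gave -0.07 (SE 1.04, adjusted p = 0.984).

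miR-152-3p, the copy within Copz2, was the least abundant 3p arm. It had 42, 22 and 31 counts at E8.5 (58.4 ± 14.0 CPM, n = 3) and no count in any E9.5 library. At E10.5 it had 0, 0 and 28 counts, and at E11.5 it had 46, 109 and 1. The mean floor of the E9.5 libraries, at 3 counts per library, was 52.5 CPM, and the mean E8.5 level was 1.11 times that floor. At this depth a fall to 0 and a small change cannot be told apart. Its adjusted p was 0.271 for E9.5 against E8.5, 0.341 for E10.5 against E9.5, 0.942 for E11.5 against E10.5 and 0.972 for E11.5 against E8.5. A fit to the 6 libraries of E8.5 and E9.5 alone called it, with an adjusted p of 0.018. There it passed the filter on low counts only through its E8.5 counts. The same floor limits that call, so it does not show a fall.

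The family's members differed in how evenly the libraries of a stage agreed. The coefficient of variation (CV, the SD as a percent of the mean) of the sum was lowest at the first and last stage (14.8% and 12.8%) and reached 66.6% for E9.5 and 59.4% for E10.5. In stage order it was 19.5%, 128%, 73.9% and 18.5% for miR-148a-3p and 9.40%, 117%, 55.1% and 64.4% for miR-148b-3p. At E9.5 the sum varied less than either of its main parts. The median CV of the entries with counts was 51.5%, 105%, 92.5% and 77.9%, also in stage order, so wide scatter at E9.5 was general. Entries at or above the level of miR-148a-3p had median CVs of 17.2%, 59.1%, 24.3% and 19.4%, from 88, 78, 64 and 91 entries. Against those medians, miR-148a-3p was scattered widely at E9.5 and E10.5 and lay close to them at E8.5 and E11.5. In the fit the biological coefficient of variation was 0.637 for the sum, 0.794 for miR-148a-3p and 0.882 for miR-148b-3p, where the median entry had 1.24. That median covers tested entries of all levels and was not matched for abundance.

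**Figure D3:**
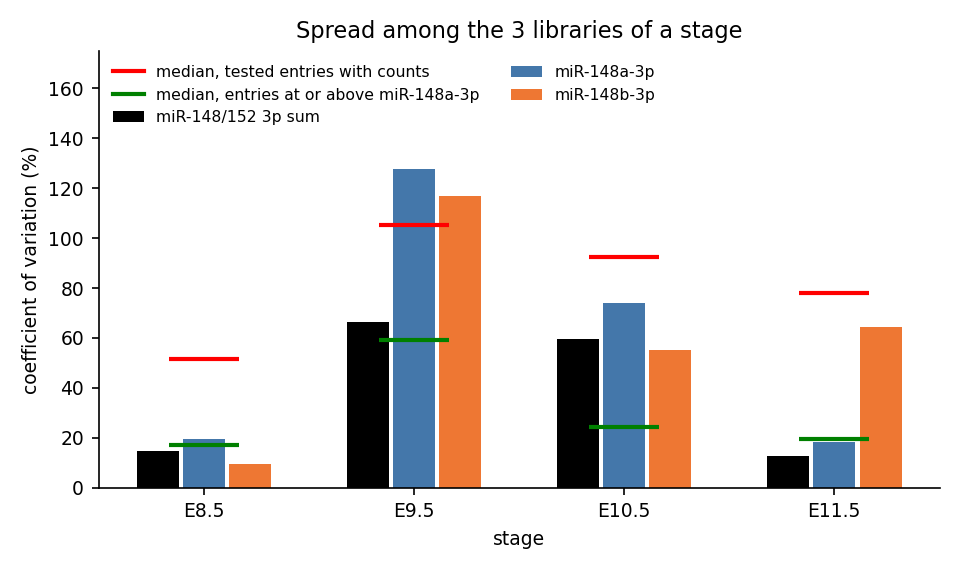
Coefficient of variation in percent (y axis, from 0) among the 3 libraries of each stage for the 3p sum, miR-148a-3p and miR-148b-3p, with lines at the median of the tested entries that had counts and at the median of entries at least as abundant as miR-148a-3p. At E9.5 the bars of miR-148a-3p (128%) and miR-148b-3p (117%) both exceed that of the sum (66.6%).

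The share of the seed supplied by miR-148a-3p followed the same scatter. At E8.5 it was 78.1%, 70.9% and 73.1% of the 3p counts (74.0 ± 3.68, n = 3). At E9.5 it was 5.48% (exact 95% binomial interval 2.40 to 10.51), 68.0% (60.0 to 75.3) and 97.8% (94.9 to 99.3). These intervals, which cover counting error only, did not overlap. At E10.5 the share was 89.4%, 97.2% and 62.2%, and at E11.5 it was 79.0%, 59.8% and 85.4%. In E9.5 replicate 1, miR-148b-3p supplied nearly all of the seed. The exact two-sided permutation test over libraries did not separate adjacent stages or E11.5 and E8.5 (p = 0.7, 0.7, 0.5 and 0.9, each 0.9 after Benjamini-Hochberg adjustment over these 4 comparisons). With 3 libraries against 3 the smallest p it can give is 0.1.

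**Figure D4:**
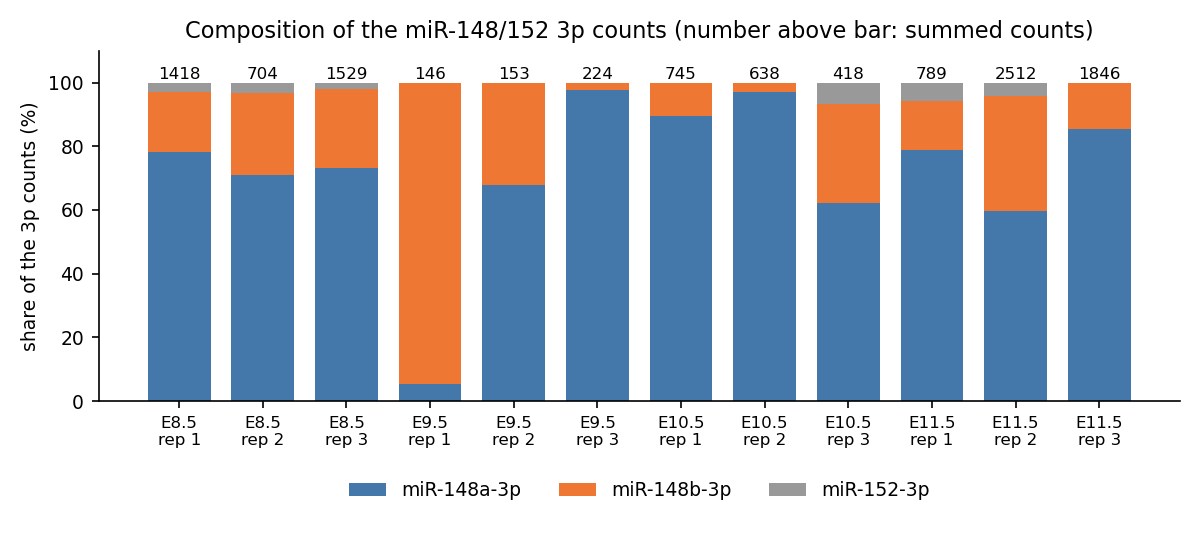
Share of the 3p counts in percent (y axis) from miR-148a-3p, miR-148b-3p and miR-152-3p in each of the 12 libraries, with the summed counts above each bar. miR-148a-3p supplies 59.8% to 97.8% in 11 libraries and 5.48% in E9.5 replicate 1.

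Across libraries, miR-148a-3p and miR-148b-3p varied in opposite directions. This relation was noticed in the values first and then measured on the same libraries. On the log2 CPM scale Pearson's r was -0.93 over 12 libraries (permutation p = 0.00016) and Spearman's rho was -0.79 (permutation p = 0.0033). Without E9.5 replicates 1 and 3, the 2 libraries farthest from the median of miR-148a-3p, r was -0.78. Deviations from the stage means, which remove differences between stages and hence any batch that coincides with them, gave r = -0.94 (exact permutation within stages, p = 0.0193 from 1296 arrangements).

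Much of this relation rested on the shallow E9.5 libraries. Without all 3 of them r was -0.77 over 9 libraries (exact permutation p = 0.0177), rho was -0.65 (exact permutation p = 0.0666), and the within-stage r was -0.73 (exact permutation p = 0.116). Leaving out E10.5 replicates 2 and 3 as well brought r to -0.47. Of 376 mature arms, miR-148a-3p had the lowest r with miR-148b-3p. The next lowest was miR-744-5p at -0.76, and the median was -0.04. The 2 arms differ only at positions 9 and 10, and whether reads of one were counted as the other was not tested.

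**Figure D5:**
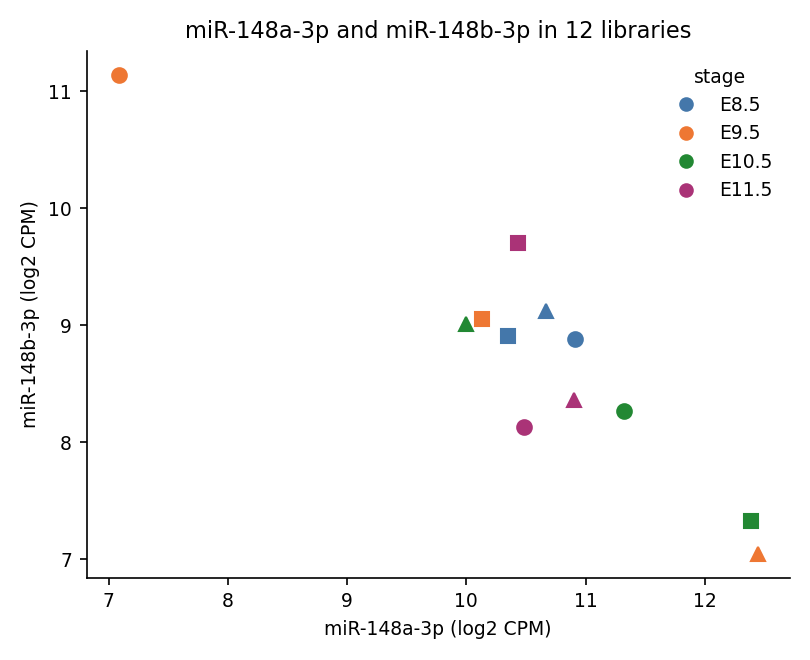
Log2 CPM of miR-148b-3p (y axis) against that of miR-148a-3p (x axis) in 12 libraries, coloured by stage, with circle, square and triangle for replicates 1, 2 and 3. The points descend from E9.5 replicate 1 at upper left to E9.5 replicate 3 at lower right (r = -0.93), and the E8.5 libraries lie close together.

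The microRNAs whose levels ran most like those of the family are given as a description over 12 libraries, among 374 mature arms tested, and share library and depth with it. For the sum the highest r were 0.62 with miR-5100, 0.61 with miR-433-3p and 0.58 with miR-452-5p. For miR-148a-3p they were 0.79 with miR-744-5p, 0.78 with miR-96-5p and 0.75 with miR-20a-5p. For miR-148b-3p they were 0.89 with miR-146b-5p, 0.80 with miR-877-3p and 0.70 with miR-669o-5p. Counts of miR-669o-5p were 46, 100 and 0 at E8.5 and 96, 0 and 0 at E9.5, of 553 in all. No arm appeared among the first 3 of both members, which their r of -0.93 with each other already forces at such values.

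The other products of the Mir148a locus were far rarer than its 3p arm. miR-148a-5p, which has the different seed AAGUUCU, totalled 300 counts, of which 202 and 51 came from E11.5 replicates 2 and 3 and 39 from E8.5 replicate 1. Its sequence is given to show how its seed differs from that of the 3p arms.
miR-148a-5p: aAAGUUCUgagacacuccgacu
Of the counts of both arms, the 5p arm held 11.9% in E11.5 replicate 2 and 3.13% in replicate 3, and none in replicate 1 of that stage. In the E8.5 libraries it held 3.40%, 0.200% and 0.179%. The share thus varied as much within a stage as between stages. The mir-148a precursor had 80, 5 and 81 counts in the E8.5 libraries and 1, 6 and 2 in those of E9.5. The E10.5 libraries had 5, 3 and 46 and the E11.5 libraries 2, 168 and 55. Neither changed in the test for any stage (adjusted p = 0.493 for miR-148a-5p and 0.963 for the precursor). The mir-148b precursor had 4 counts in all and the mir-152 precursor had 3, all in E11.5 replicate 1, and neither passed the filter.

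The miR-130/miR-301 group was compared because its arms carry the seed letters shifted by 1 base. The 4 arms listed were miR-130a-3p, miR-130b-3p, miR-301a-3p and miR-301b-3p, and the shift was not checked for miR-301b-3p. miR-6389, which holds the same letters at bases 1 to 7, was not in the list and had 1 count in all. Of the 4, 2 were tested and 0 were called by edgeR in any of the 4 comparisons, and they differed in direction at E9.5. miR-130a-3p measured 231 ± 72.7 CPM in the E8.5 libraries and 491 ± 433 CPM in those of E9.5 (n = 3 each), where its libraries had 1, 55 and 34 counts. Its log2 fold change was 1.08 (SE 1.48, adjusted p = 0.664 in the edgeR fit). miR-130b-3p measured 419 ± 174 CPM in the E8.5 libraries and 42.9 ± 51.0 CPM in those of E9.5 (n = 3 each), where its libraries had 1, 1 and 4 counts. Its log2 fold change for E9.5 against E8.5 was -3.39 (SE 1.42, unadjusted p = 0.0258 and adjusted p = 0.202 in the edgeR fit across all entries). For E10.5 against E9.5 the value was 3.35 (SE 1.42, unadjusted p = 0.0274, adjusted p = 0.198 in the same edgeR fit). miR-301a-3p and miR-301b-3p, which were not tested, were at 0 in every E9.5 and E10.5 library. At E8.5 miR-301a-3p had 0, 1 and 62 counts and miR-301b-3p had 35, 25 and 0. Their E8.5 means (30.9 and 42.0 CPM) lay below the mean E9.5 floor of 52.5 CPM, so the zeros at E9.5 do not show a loss.

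Acinar and hepatocyte microRNAs were set beside the family because adult pancreas and liver are rich in miR-148a. Of 6 acinar arms listed, 2 were in the table, 1 was tested and 0 were called by edgeR in any comparison. That arm, miR-216b-5p, had 1, 0 and 48 counts at E8.5 and none at E9.5. It then had 125, 21 and 0 counts in the E10.5 libraries and 18, 71 and 0 in those of E11.5. Of 5 hepatocyte arms, 4 were tested and 2 were called higher at E9.5 than at E8.5. miR-122-5p, the main hepatocyte microRNA, rose from 519 ± 69.1 CPM to 65145 ± 26407 CPM (n = 3 each), or by 6.97 on the log2 scale with an SE of 0.37 (adjusted p = 2.2e-12). The other, miR-194-5p, rose by 4.73 on the log2 scale (SE 1.34, adjusted p = 0.0361), with overlap between the stages. It had 184, 3 and 68 counts at E9.5, where replicate 2 stood at 32.2 CPM and the E8.5 libraries reached 97.4 CPM. miR-101a-3p gave -3.18 (SE 1.81, adjusted p = 0.283), from 327 ± 104 CPM in the E8.5 libraries and 36.9 ± 22.7 CPM in those of E9.5 (n = 3 each, edgeR), the latter from 3, 1 and 2 counts. miR-192-5p gave -0.16 (SE 2.63, adjusted p = 0.980). At E11.5 against E8.5, 1 of the 4, miR-122-5p, was called higher. Across the step from E8.5 to E9.5 the miR-148/miR-152 3p sum differed by 0.57, as given above, with an interval that includes 0.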

How the data were processed

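The deposited data were raw counts of reads for each microRNA entry, made by the authors, with 1 column per library and no pooling. Per the study's methods, adapters and random bases were trimmed, and reads were aligned to mm10 with STAR within COMPSRA and counted against mature and precursor annotation. Random bases were not used to count molecules. How reads matching several arms were assigned is not given in the sources used here.

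Counts were tested with edgeR 4.0.16 (glmQLFit, glmQLFTest) in R 4.3.3, with TMM factors (0.733 to 1.17), filterByExpr (minimum count 10, minimum total 15) and a prior count of 0.125. All 12 libraries entered 1 fit with stage as factor, and p-values were adjusted by Benjamini-Hochberg over all entries tested. The sum of the 3 arms replaced its members in a separate fit (569 entries), and members were tested one by one in another (571 entries). Entries were called at an adjusted p under 0.05. Correlations used log2 CPM with a prior count of 2, and the permutation test of the share used scipy 1.17.1. Permutation p-values of correlations were computed without that routine. They used random resamples over 12 libraries, and all arrangements within stages or where fewer libraries were left. CPM were computed from the deposited counts. Alternatives were RLE scaling, library size alone, other filters, DESeq2 1.42.0, the replicate block, subsets of entries and left-out libraries. DESeq2 gave no adjusted p for miR-148a-5p or miR-152-3p in some comparisons.

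Named microRNAs were all entries matching the family's names, related and marker lists, and the 3 arms with the highest r to the sum, miR-148a-3p and miR-148b-3p. Members and lists were chosen with earlier results of these data known. Of the 633 mature arms, 541 were found by name in the RefSeq table.

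The marker lists not described with the results had these tested and called arms in the 4 comparisons. Erythroid (1 tested), leukocyte (1, miR-155-5p), endothelial (2) and neural (2) arms gave 0 calls in edgeR, which leaves out arms that failed the filter, such as miR-223-3p. Of 5 mesenchymal arms, 1 was lower at E9.5 than at E8.5, 1 higher at E10.5 than at E9.5 and 2 higher at E11.5 than at E8.5. The 1 muscle arm tested was lower at E10.5 than at E9.5 and at E11.5 than at E8.5. Of 5 epithelial arms, 3 were higher at E11.5 than at E8.5. Of 2 pancreatic endocrine arms, 1 was higher at E9.5 than at E8.5 and 2 at E10.5 than at E9.5 and at E11.5 than at E8.5.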

Additional observations from a re-analysis of the deposited data

How the results depend on the processing

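No fold change of the sum or of a single 3p arm was called with all libraries, and signs of values near 0 moved with the processing. For E10.5 against E9.5 the log2 fold change of the sum was -0.51 with RLE scaling, -0.39 with a filter of 10 counts in 6 libraries, -0.51 with DESeq2, -0.48 without mir-6236 and mir-6240 and -0.40 in the fit of both stages alone. For miR-148a-3p it was -0.23 with RLE scaling, -0.23 with DESeq2 and -0.21 without mir-6236 and mir-6240. For E9.5 against E8.5, miR-148a-3p gave 1.30 with RLE scaling, 1.30 with DESeq2, 1.04 without mir-6236 and mir-6240, 0.79 with a filter of 10 counts in 6 libraries, 1.23 in the fit of both stages alone, 0.043 with library size alone and 0.046 with the replicate block, and miR-148b-3p gave 1.48 with RLE scaling and 1.49 with DESeq2. For E11.5 against E10.5, miR-148b-3p gave 0.37 with RLE scaling and 0.37 with DESeq2. Without the 3 E9.5 libraries, an alternative chosen after seeing the data for these fold changes, E11.5 against E8.5 gave 0.038 for the sum, 0.028 for miR-148a-3p and 0.023 for miR-148b-3p. Without them the within-stage r of the main pair was -0.73. The fit of E8.5 and E9.5 alone called 1 member, miR-152-3p, at -7.11 (adjusted p = 0.018, fewer samples and a spread of its own). Its E9.5 counts were all 0, so the size of that value depends on the prior count and is not a measured change. Its mean E8.5 level was only 1.11 times the mean E9.5 floor. The cause of the other shifts was not tested.

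Leaving out 1 library at a time, the sum ranged from -0.12 to 1.10 in E9.5 against E8.5, from -0.50 to 0.76 in E10.5 against E9.5, from -0.98 to -0.011 in E11.5 against E10.5 and from -0.17 to 0.18 in E11.5 against E8.5. miR-148a-3p ranged from -1.39 to 1.10, from -0.27 to 2.30, from -1.35 to -0.12 and from -0.20 to 0.16 in these comparisons. miR-148b-3p ranged from -0.65 to 1.49, from -2.13 to 0.019, from -0.14 to 1.13 and from -0.78 to 0.36 in the same order. miR-152-3p ranged from -0.23 to 0.86 in E11.5 against E8.5. Without E10.5 replicate 3 it was at 0 in all E9.5 and E10.5 libraries, which gives no value. The difference in the share of miR-148a-3p ranged from -37.3 to 8.85 percentage points in E9.5 against E8.5 and from -4.65 to 8.17 in E11.5 against E8.5. The extremes that included E9.5 came from leaving out its replicates 1, 2 or 3 or E10.5 replicates 2 or 3.

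Same-numbered libraries of different stages did not deviate together (r of -0.148 to 0.112 over 18 pairs), so the numbers were not taken as pairing. The replicate block gave 0.52, 0.09, -0.67 and -0.05 for the sum in the 4 comparisons and changed no call of a member. Over all alternatives the number of entries called ranged from 21 to 70 in E9.5 against E8.5, 7 to 63 in E10.5 against E9.5, 1 to 8 in E11.5 against E10.5 and 38 to 106 in E11.5 against E8.5, where the fits reported above called 32, 25, 2 and 66. RLE scaling called 44 higher and 6 lower in E9.5 against E8.5, where TMM called 23 and 9, and 1 higher and 23 lower in E10.5 against E9.5, where TMM called 9 and 16. Depth limits E9.5 most, where 8 and 5 counts carried the lowest values of miR-148a-3p and miR-148b-3p.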
